A study of Oryctolagus cuniculus with 20 samples.

Results

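A group of 6 genes of glucose use and of the response to low oxygen was followed through rabbit arteries that had been moved into a vein. They are LDHA, lactate dehydrogenase A, TPI1, triosephosphate isomerase, HIF1A, the alpha subunit of hypoxia-inducible factor 1, ANKRD37, ankyrin repeat domain 37, GYS1, muscle glycogen synthase, and STC2, stanniocalcin 2. Each was found by its symbol in the deposited expression table, so the 6 members come from 23669 genes. All of them were among the 8657 genes that reached 1 FPKM in at least 4 libraries and were tested. FPKM divides the fragments of a transcript by its length and by the size of its library, so levels of different genes can be set side by side per length. LDHA was summed over 2 transcript rows, the lesser of which never exceeded 0.98 FPKM, and the others had 1 row each. The genome build was not given in the sources used here, so no positions are stated.

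The study sequenced total RNA of rabbit (Oryctolagus cuniculus) vessels in 20 libraries, 5 groups of 4. A piece of common carotid artery was transplanted into a vein and collected on day 14 or day 30 after surgery (grafts). On each day the carotid artery of the other side, which was not operated on, was the control. Unoperated external jugular vein is the fifth group. All samples, vein and controls included, also carry the cell line name HASMC, the genotype label "tissue" and the treatment label "transplatation", which go against their tissue labels. Strain, sex and age are not in the labels used here. The libraries of a group are called biological replicates without a statement that each comes from its own animal, so p-values measure the spread between these libraries.

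Glycolysis splits glucose into pyruvate and yields energy without oxygen. LDHA reduces pyruvate to lactate and restores the NAD+ that glycolysis consumes, and TPI1 interconverts the 3-carbon sugars in the middle of the pathway. When oxygen is short, the hydroxylases of the EGLN family no longer mark the HIF alpha subunits (HIF1A and EPAS1) for destruction, and the stabilised subunits pair with ARNT and switch on glycolytic enzymes and other targets. HIF1A is controlled largely at the protein level, which RNA does not show. In vessels, smooth muscle, endothelium and invading macrophages all use this system, and GYS1 stores glucose as glycogen.

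FPKM summed to between 327806 and 671582 per library, and read counts, hence depth and counting error, are unknown. Spread was uneven. Among 1265 genes averaging at least 30 FPKM, the typical (median) SD on the log2 scale was 0.0733 for controls of day 14, 0.135 in vein, 0.189 in grafts of day 30, 0.198 in controls of day 30 and 0.324 in grafts of day 14. In each group except the controls of day 14, a single library lay closer to a weighted mean of the other 3 than its fellows did: graft day 14 replicate 3, control day 30 replicate 2, graft day 30 replicate 4 and vein replicate 4, called mixture-like here. Their median absolute log2 differences from that mean were 0.0745 to 0.0840, and those of the 4 near-identical controls of day 14 were 0.0731 to 0.0769. Results are therefore also given with the day 14 controls counted as 1 sample, without the 4 mixture-like libraries, and with both changes. Smooth muscle markers summed to 9146 to 9665 FPKM in controls of day 14, 6731 to 9542 in controls of day 30, 4189 to 4517 in vein, 1536 to 1953 in grafts of day 30 and 710 to 1038 in grafts of day 14 (11 of 12 markers found, SMTN listed at 0 in every group). A listed 0 can be a failed estimate, because PGK1, which every glycolysing cell uses, was listed at 0 in all 20 libraries.

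The mitochondrial gene ATP8 split the libraries, between the control groups and also within each graft group. It took 8.78 to 9.49% of the summed FPKM in the controls of day 14, 7.98, 10.9, 2.88 and 0% in the grafts of day 14 (replicates 1 to 4), 11.8, 9.98, 0.00266 and 7.26% in the grafts of day 30, and at most 0.00384% in the controls of day 30 and in vein. The 2 control groups therefore differ in ATP8 throughout, and the gap between them cannot be told apart from this split. Among libraries where ATP8 was high, LDHA was 262 and 273 FPKM in grafts of day 14 (replicates 1 and 2) and at most 54.6 FPKM in the controls of that day. In grafts of day 14 replicates 3 and 4, with ATP8 at 2.88 and 0%, LDHA was higher still. Graft day 30 replicate 3 was the only graft of that day with ATP8 near 0. It held 148 FPKM of LDHA, above all 4 controls of day 30, and 90.9 FPKM of HIF1A, below all 4. The part of the split in these and all other results was not tested.

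Of the listed glycolytic enzymes called at day 14, LDHA (ENSOCUG00000015939) had the largest log2 change of (FPKM + 1), a scale that understates the change of low genes. Its level was 51.5, 53.3, 50.4 and 54.6 FPKM in the controls of day 14 (replicates 1 to 4) and 262, 273, 357 and 397 FPKM in the grafts of that day. The lowest graft stood far above the highest control. The mean rose from 52.5 ± 1.86 to 322 ± 65.7 FPKM (SD, n = 4), a ratio of 6.14, and the log2 change of (FPKM + 1) was 2.57 (SE 0.14, adjusted p = 1.03e-10, limma with Benjamini-Hochberg adjustment over all genes, as for every adjusted p of a gene here). This call held in all 34 alternative settings. Because these are whole tissues, more cells of a type and more RNA per cell cannot be told apart here or below.

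At day 30 the controls held 98.6, 110.5, 129.4 and 80.1 FPKM of LDHA, and the 4 grafts 170.2, 168, 148 and 161 FPKM. The groups did not overlap, but they were closer together from both sides: grafts were lower than at day 14 and controls higher. The mean was 162 ± 10.2 FPKM in grafts and 105 ± 20.7 FPKM in controls, a log2 change of 0.64 (SE 0.14, adjusted p = 0.00117). Rescaling to TPM ended this call (0.38, adjusted p = 0.231). Vein held 93.2, 79.9, 88.4 and 91.7 FPKM of LDHA. Ordered by mean, LDHA ran from grafts of day 14 through grafts of day 30, controls of day 30 and vein to controls of day 14, and among these neighbours vein and the controls of day 30 did not differ past the threshold (log2 difference -0.22, adjusted p = 0.245).

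A second locus described as similar to the lactate dehydrogenase A chain could share reads with LDHA. It ranged from 6.04 to 7.02 FPKM in controls and from 11.83 to 26.2 FPKM in grafts at day 14, and from 5.14 to 19.1 and from 9.98 to 18.9 FPKM at day 30, where the groups overlapped. In vein it was 4.32 to 5.36 FPKM, below the controls of day 14, whereas LDHA in vein was above them. LDHB, the heart-type subunit that forms the same tetramer, never exceeded 0.67 FPKM and was listed at 0 in 12 libraries. The LDHA share of both subunits, 99.98% in grafts and 99.3% in controls at day 14 (exact permutation test, adjusted p = 0.19) and 99.95% and 100% at day 30 (adjusted p = 0.429), was therefore fixed by a gene at or near 0 and is not read further.

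TPI1 (ENSOCUG00000025649) rose with LDHA at day 14 and not past the threshold at day 30. Controls of day 14 held 145, 152, 140.1 and 129.6 FPKM and grafts 248, 334, 402 and 425 FPKM, again without overlap. The means were 142 ± 9.60 and 352 ± 79.4 FPKM, a ratio of 2.48 and a log2 change of 1.28 (SE 0.12, adjusted p = 8.97e-08), and the call held in all 34 alternatives. In both genes graft replicates 3 and 4 were the highest libraries. At day 30 TPI1 was 165, 167, 169 and 163 FPKM in controls and 175, 196, 185 and 179.6 FPKM in grafts. Every graft was above every control, yet the difference was small beside the spread shared by all groups (log2 0.15, SE 0.12, adjusted p = 0.374), and its sign turned under median-of-ratios scaling (-0.05) and TPM (-0.12).

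Vein held more TPI1 than either control group, at 227, 226, 229 and 221 FPKM. From high to low the order was grafts of day 14, vein, grafts of day 30, controls of day 30 and controls of day 14. Grafts of day 14 exceeded vein (log2 0.61, adjusted p = 0.000494, lost under TPM at 0.328). None of the other neighbouring pairs passed the threshold: vein and grafts of day 30 (adjusted p = 0.0684), grafts and controls of day 30 (0.374), and the controls of both days (0.257).

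**Figure D1:**
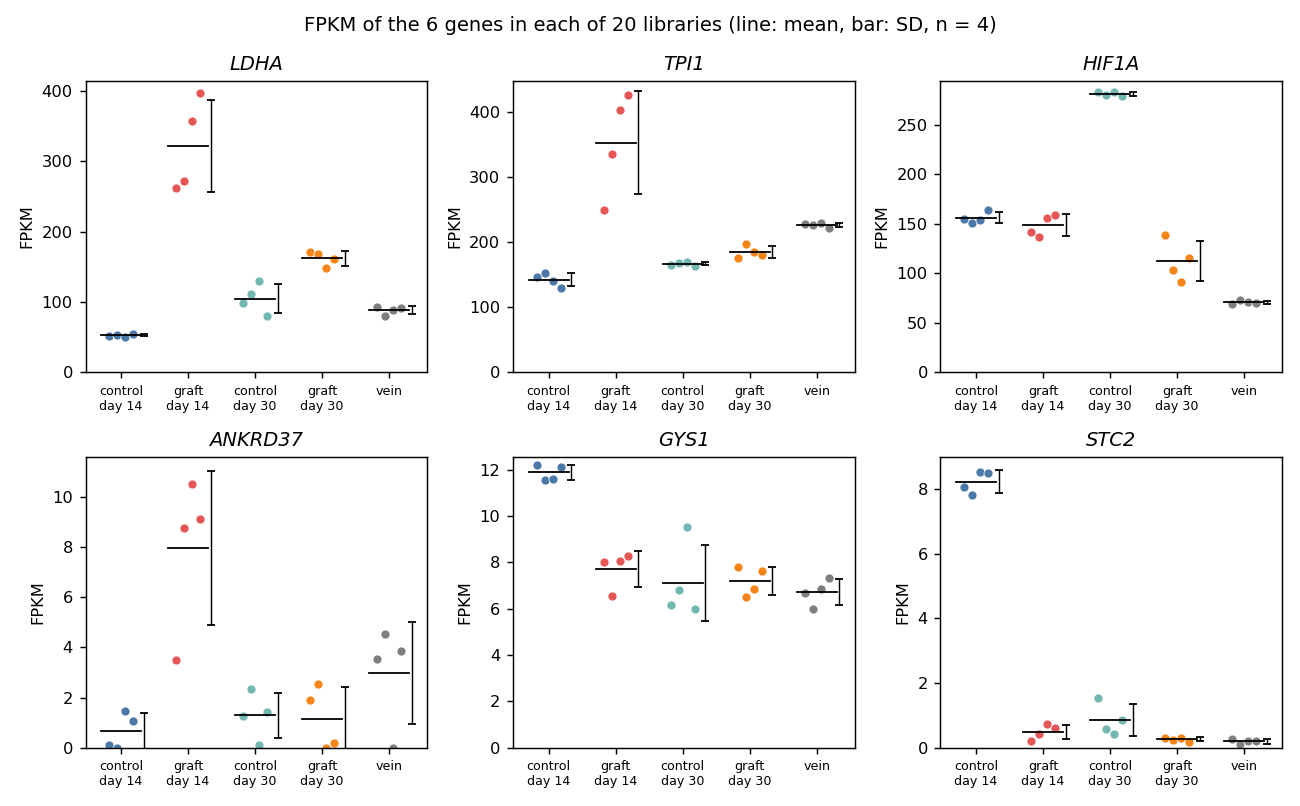
FPKM of LDHA, TPI1, HIF1A, ANKRD37, GYS1 and STC2 (vertical axis, separate linear scale per gene) in the 20 libraries by group; each point is a library, the line is the mean and the bar the SD of 4 libraries, cut at 0 where it would pass below. LDHA, TPI1 and ANKRD37 have their highest points in grafts of day 14, HIF1A in controls of day 30 (278.9 to 283 FPKM), and GYS1 and STC2 in controls of day 14.

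Among the other glycolytic enzymes the rise of day 14 was broad but not general. Of 20 enzymes on the list, 14 were tested, and 9 were higher and 1 lower in grafts (36.5% of all genes tested were called higher and 17.0% lower). The median log2 change of the list was 0.48, beside 0.26 for all genes. GPI, which converts glucose-6-phosphate to fructose-6-phosphate, went from 47.5–49.4 FPKM in controls to 145–195.5 FPKM in grafts (log2 1.79, adjusted p = 1.4e-10). GAPDH, the enzyme after TPI1, went from 87.0 ± 1.82 to 325 ± 146 FPKM (log2 1.78, adjusted p = 2.75e-06), and ENO3, the muscle enolase, from 0.46 ± 0.26 to 3.42 ± 0.45 FPKM (1.61, adjusted p = 1.28e-07). ALDOA, aldolase A, rose by less (0.50, adjusted p = 0.00366), while ENO1 (0.46, adjusted p = 0.0531) and PKM, pyruvate kinase (0.20, adjusted p = 0.494), did not pass. HK1 (0.36), PFKM (0.45) and PGAM2 (0.59) were the remaining enzymes called higher.

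PFKP, the platelet isoform of phosphofructokinase, was the exception. It fell from 120.3–126 FPKM in controls to 21.3–41.8 FPKM in grafts at day 14 (log2 -1.89, adjusted p = 2.73e-08) and from 110.4–131 to 24.9–34.9 FPKM at day 30 (-1.96, adjusted p = 4.42e-08). Vein was at 37.7 ± 4.61 FPKM of PFKP, near the grafts. The 9 enzymes called higher became 5 under median of ratios, TPM or quantile scaling, and 5 with the day 14 controls counted as 1 sample. Of all 8657 genes tested, 2124 were called higher under TPM, 2192 under quantile scaling and 1730 with those controls as 1 sample. Under median of ratios the split over all genes moved as well, from 3161 higher and 1473 lower to 2369 and 2140, as the median of all genes dropped from 0.26 to 0.04.

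At day 30 the list was near the rest of the genes. Of the 14 enzymes 3 were higher (LDHA, GPI and PFKM) and 1 lower (PFKP), where 26.0% of all genes were called higher and 11.6% lower, and the list median was 0.09 beside 0.18. Median of ratios turned that list median to -0.03, with all genes at 0.03 and 1719 called higher and 1455 lower in place of 2253 and 1000. GPI stood at 106 ± 12.8 FPKM in grafts and 55.9 ± 2.79 FPKM in controls (log2 0.90, adjusted p = 1.44e-06). GAPDH, at 216 ± 57.0 and 180.4 ± 12.7 FPKM, overlapped between the groups (0.23, adjusted p = 0.47).

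Of 17 genes of pyruvate and lactate fate 11 were tested, with 2 higher and 1 lower at day 14 (list median -0.12 beside 0.26 for all genes) and 0 higher and 2 lower at day 30 (-0.20 beside 0.18). Those are 3 and 2 calls among 11, where 53.5% and 37.6% of all genes were called. MPC1, a subunit of the mitochondrial pyruvate carrier, went from 38.2 ± 3.34 to 66.5 ± 10.4 FPKM at day 14 (log2 0.78, adjusted p = 0.00166), and PDHB, of pyruvate dehydrogenase, from 20.3 ± 2.15 to 26.4 ± 2.71 FPKM (0.37, adjusted p = 0.00185). SLC16A1, a lactate transporter, was the largest fall of day 30, from 18.6 ± 7.46 FPKM in controls to 7.64 ± 0.66 FPKM in grafts (-1.11, adjusted p = 0.000296). PDK1, the kinase that shuts off pyruvate dehydrogenase, was not called at day 14 (0.08, adjusted p = 0.753) and was lower in grafts at day 30 (-0.63, adjusted p = 0.0181), with overlapping groups. PDK4, another of these kinases, was 25.1–26.2 FPKM in controls and 4.9, 4.87, 17.3 and 20.1 FPKM in grafts at day 14. No graft reached a control, but the estimate of -1.30 on the log2 scale had an SE of 0.73 and was not called (adjusted p = 0.147).

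HIF1A (ENSOCUG00000017741) behaved unlike the enzymes. Its transcript was 155, 151, 154 and 164 FPKM in controls of day 14 and 142, 137, 156 and 159 FPKM in grafts. The groups overlapped, with means of 156 ± 5.47 and 148 ± 10.9 FPKM and a log2 difference of -0.07 (SE 0.10, adjusted p = 0.55). Median of ratios (-0.37, adjusted p = 0.00432) and quantile scaling (-0.40, adjusted p = 0.00262) called it lower in grafts.

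At day 30 HIF1A was 283, 279.7, 283 and 278.9 FPKM in controls and 139, 103, 90.9 and 115 FPKM in grafts. All 4 grafts lay below all 4 controls, at a mean of 112 ± 20.5 beside 281 ± 2.29 FPKM (log2 -1.34, SE 0.10, adjusted p = 1.31e-08, held in all 34 alternatives). This gap came from both groups: the controls were higher than those of day 14 (0.85, adjusted p = 2.96e-05), and the grafts lower than the grafts of day 14 (-0.42, adjusted p = 0.00752) though these overlapped. The first of those was lost with the day 14 controls as 1 sample (adjusted p = 0.0565), and the second in 5 settings, among them TPM (-0.21, adjusted p = 0.538) and without the mixture-like libraries (-0.41, adjusted p = 0.0869).

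Vein was lowest in HIF1A, at 68.9, 72.5, 70.9 and 69.4 FPKM, below every library of the other groups. The order of the means was controls of day 30, controls of day 14, grafts of day 14, grafts of day 30 and vein, and only the day 14 pair did not differ past the threshold. Grafts of day 14 (log2 1.06, adjusted p = 1.37e-07) and of day 30 (0.65, adjusted p = 6.57e-05) were both above vein.

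EPAS1, which encodes the alpha subunit of HIF-2 and is abundant in endothelium, was lower in grafts at day 14. It was 191–199.6 FPKM in controls of day 14 and 144, 169, 69.9 and 53.6 FPKM in grafts (log2 -0.98, adjusted p = 0.00244). At day 30 it was 267 ± 13.9 FPKM in controls and 229 ± 12.2 FPKM in grafts (-0.23, adjusted p = 0.512). HIF1A made up 59.5 ± 14.7% of the sum of both transcripts in grafts and 44.5 ± 1.24% in controls at day 14 (exact permutation test, two-sided, p = 0.0857, adjusted over 4 tests 0.171). At day 30 the share was 32.7 ± 3.36% in grafts and 51.3 ± 1.47% in controls, lower in 4 of 4 grafts (exact permutation test, p = 0.0286, the smallest that 4 against 4 libraries can give, adjusted 0.114). Neither share difference passed the adjustment. At day 30 the p was already the smallest possible, so beside the other p-values of the 4 tests that difference could not have passed. No conclusion is drawn from it.

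Of 19 genes of the HIF machinery 11 were tested, with 2 higher and 3 lower at day 14 (36.5% and 17.0% of all genes) and 1 higher and 4 lower at day 30 (26.0% and 11.6%). The list median was -0.05 beside 0.26 for all genes at day 14 and -0.23 beside 0.18 at day 30. EGLN3, an oxygen-sensing hydroxylase that is itself a HIF target, rose at both days, from 1.59 ± 0.10 to 4.66 ± 1.28 FPKM (log2 1.10, adjusted p = 1.29e-05) and from 2.04 ± 0.57 to 3.51 ± 0.70 FPKM (0.57, adjusted p = 0.008). EGLN1, the main hydroxylase of the family, fell at day 14 (-0.57, adjusted p = 0.0348) and not past the threshold at day 30 (-0.31, adjusted p = 0.292). ELOB, of the complex that targets HIF for destruction, was higher at day 14 (0.76, adjusted p = 3.44e-05). HIF1AN, which blocks the activity of HIF, was lower at both days (-0.38 each, adjusted p = 0.0221 and 0.0344). HSP90AB1 (-0.91, adjusted p = 0.0294) and CUL2 (-0.28, adjusted p = 0.0387) were lower at day 30, and ARNT was not called on either day (-0.01 and 0.34). VHL and HIF3A were not analysed here.

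ANKRD37 (ENSOCUG00000012369), a small HIF target, was low in all groups and highest in grafts of day 14. Controls of day 14 held 0.12, 0, 1.46 and 1.07 FPKM and grafts 3.50, 8.77, 10.51 and 9.12 FPKM. The groups did not overlap (means 0.66 ± 0.72 and 7.97 ± 3.08 FPKM, log2 2.45, SE 0.55, adjusted p = 0.00105). The call was lost with the day 14 controls as 1 sample (2.35, adjusted p = 0.0645), and also with both changes (2.20, adjusted p = 0.15).

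At day 30 ANKRD37 was 1.28, 2.34, 0.12 and 1.42 FPKM in controls and 1.91, 2.56, 0 and 0.19 FPKM in grafts, interleaved (log2 -0.19, SE 0.55, adjusted p = 0.828). Vein held 3.54, 4.52, 0 and 3.86 FPKM, and the 0 of replicate 3 stands apart from the other three. The same library was the highest in beta-globin, whereas graft day 30 replicate 3, also at 0 for ANKRD37, was the lowest of its group in it. A link between the 2 genes was not tested. By mean the order was grafts of day 14, vein, controls of day 30, grafts of day 30 and controls of day 14, and no neighbouring pair passed the threshold, grafts of day 14 and vein included (log2 1.35, adjusted p = 0.0561). Grafts of day 14 did exceed grafts of day 30 (adjusted p = 0.0124) and controls of day 30 (log2 1.99, adjusted p = 0.00597). The difference between the grafts of the 2 days was lost in 5 settings (adjusted p up to 0.235), leaving out the mixture-like libraries among them (-1.81, adjusted p = 0.132).

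STC2 (ENSOCUG00000007985), a secreted glycoprotein induced by hypoxia and by stress of the endoplasmic reticulum, had a single high group. It was 8.06, 7.83, 8.54 and 8.5 FPKM in controls of day 14 and at most 1.55 FPKM elsewhere. The gene passed the filter on low values only through those controls, so a difference from them was built in and is given without a test. Grafts of day 14 held 0.20, 0.41, 0.72 and 0.61 FPKM, a mean 17.0 times below the controls (8.23 ± 0.35 and 0.48 ± 0.23 FPKM, log2 -2.65). Controls of day 30 held 1.55, 0.59, 0.41 and 0.87 FPKM, also far below those of day 14 (-2.35).

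Grafts of day 30 held 0.30, 0.25, 0.31 and 0.17 FPKM of STC2, below all 4 controls of that day (log2 -0.53, SE 0.16, adjusted p = 0.0132). That call was lost with a filter of 5 FPKM (adjusted p = 0.074) and with only the groups compared in the fit (0.072). Vein held 0.28, 0.10, 0.21 and 0.22 FPKM. The order was controls of day 14, controls of day 30, grafts of day 14, grafts of day 30 and vein, and below the controls of day 14 no neighbouring pair passed the threshold (adjusted p = 0.127, 0.357 and 0.788).

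STC1, its paralogue and also a hypoxia target, went the opposite way. It rose from 0.36, 1.11, 0.44 and 0.87 FPKM in controls to 39.6, 29.8, 8.52 and 2.69 FPKM in grafts at day 14 (log2 3.12, adjusted p = 4.94e-05), and from 0.73 ± 0.37 to 15.8 ± 4.25 FPKM at day 30 (3.27, adjusted p = 5.88e-05). Every graft library was above every control of its day, and the grafts of day 14 ranged widely.

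Of 31 hypoxia targets on the list, with ANKRD37 and STC2 among them, 22 were tested. At day 14, 13 were higher and 2 lower (SLC2A1, and STC2, whose call was built in), where 36.5% of all genes were called higher and 17.0% lower. The list median was 0.59 beside 0.26 for all genes. At day 30, 4 were higher and 3 lower, where 26.0% of all genes were called higher and 11.6% lower, with a median of 0.08 beside 0.18. CXCR4, a chemokine receptor carried by leukocytes, rose at both days (log2 4.91, adjusted p = 5.52e-08, and 2.95, adjusted p = 4.16e-05). MIF, a macrophage cytokine (1.72, adjusted p = 7.39e-08), and BNIP3, a mitophagy receptor (36.2 ± 3.40 to 78.6 ± 10.1 FPKM, 1.09, adjusted p = 4.52e-08), were strongest at day 14 and smaller at day 30 (0.49, adjusted p = 0.0198, and 0.31, adjusted p = 0.0166). ANGPTL4 (2.13), HILPDA (2.18), BHLHE40 (1.75), TFRC (1.14) and BNIP3L (1.02) passed at day 14 and not at day 30, and for none of these 5 did the effects differ past the threshold between the days (adjusted p from 0.0584 to 0.614).

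The glucose transporter SLC2A1, a classical HIF target, fell. It went from 12.3–13.8 FPKM in controls to 3.88–8.36 FPKM in grafts at day 14 (log2 -1.03, adjusted p = 0.00301) and from 11.5 ± 2.67 to 2.90 ± 1.52 FPKM at day 30 (-1.74, adjusted p = 4.87e-05). VEGFA, the vascular growth factor, was 3.59 FPKM or less in these groups and was not called (0.21, adjusted p = 0.553, and 0.39, adjusted p = 0.296), nor was ADM, adrenomedullin (0.57, adjusted p = 0.175, and -0.24, adjusted p = 0.631). FAM162A was higher at day 14 (0.36) and lower at day 30 (-0.45). The 13 targets called higher at day 14 became 8 under median of ratios, 9 without the mixture-like libraries, 6 with the day 14 controls as 1 sample and 4 with both changes. Calls of higher genes over all 8657 tested fell as well, from 3161 to 2369, 2786, 1730 and 1092 in the same settings.

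STC2 is also a target of the stress factor ATF4, and of 18 such stress-induced genes 10 were tested. At day 14, 5 were higher and 0 lower (36.5% and 17.0% of all genes, list median 0.58 beside 0.26). At day 30, 1 was higher and 1 lower (26.0% and 11.6% of all genes, list median 0.11 beside 0.18). VLDLR rose at both days (log2 1.24, adjusted p = 3.69e-07, and 2.19, adjusted p = 1.13e-09), and HERPUD1 (0.46) and HSPA5, the chaperone BiP (0.45), at day 14. DDIT3, or CHOP, was not called at day 14 (-0.10, adjusted p = 0.538) and was lower in grafts at day 30 (-1.16, adjusted p = 2.21e-06), where controls averaged 86.0 ± 14.6 FPKM, grafts 37.8 ± 4.10 FPKM and the controls of day 14 were at 36.3 ± 2.68 FPKM. Counting the day 14 controls as 1 sample left 1 of the 5 calls, while calls of higher genes over all 8657 tested went from 3161 to 1730.

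**Figure D2:**
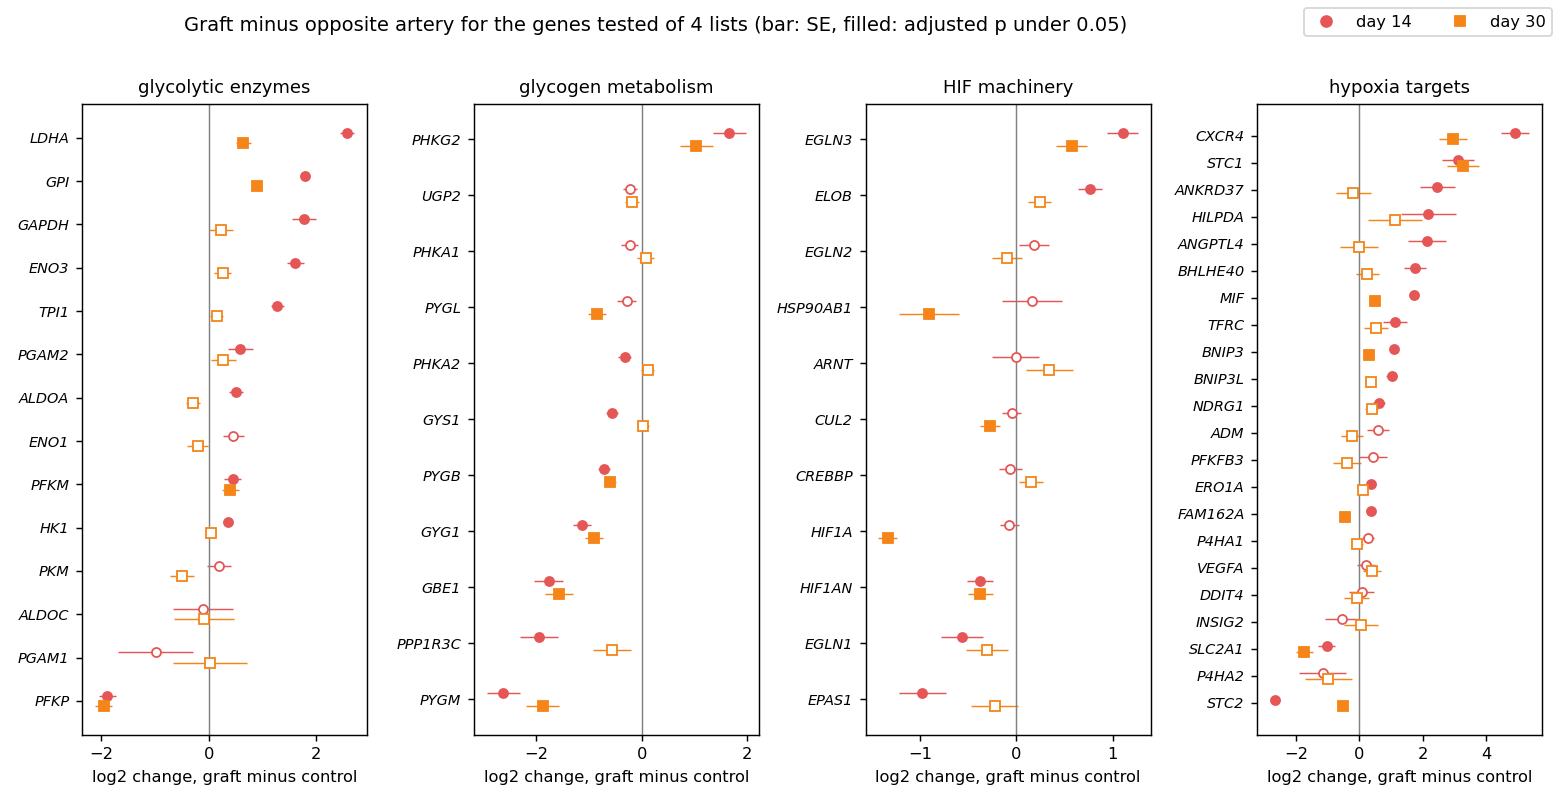
Log2 change of (FPKM + 1), graft minus control (horizontal axis), for every tested gene of 4 lists, day 14 as circles and day 30 as squares, bars SE, filled where the adjusted p was under 0.05. Circles lie mostly right of 0 for glycolytic enzymes and hypoxia targets and mostly left of it for glycogen metabolism, with PFKP, SLC2A1 and STC2 at the lower end of their panels.

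GYS1 (ENSOCUG00000000015), which builds glycogen chains, was lower in grafts at day 14 and not at day 30. It was 12.2, 11.6, 11.6 and 12.1 FPKM in controls of day 14 and 8, 6.56, 8.04 and 8.26 FPKM in grafts. No graft reached a control, and the means were 11.9 ± 0.34 and 7.71 ± 0.78 FPKM (log2 -0.57, SE 0.12, adjusted p = 0.000512). With the day 14 controls as 1 sample the adjusted p was 0.0537. At day 30 controls held 6.17, 6.81, 9.51 and 5.98 FPKM and grafts 7.81, 6.51, 6.85 and 7.62 FPKM, overlapping fully (0.03, SE 0.12, adjusted p = 0.867).

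Vein held 6.66, 6, 6.85 and 7.33 FPKM of GYS1. In the order controls of day 14, grafts of day 14, grafts of day 30, controls of day 30 and vein, only the first pair differed past the threshold. The controls of day 14 were thus the group that stood apart, above the controls of day 30 as well (log2 0.69 lower at day 30, adjusted p = 0.00109), a call lost under TPM (adjusted p = 0.0939) and with those controls as 1 sample (0.266).

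Of the other 10 glycogen genes tested, 4 were lower in grafts on both days (PYGM, GBE1, GYG1 and PYGB), 6 in all at day 14 and 5 at day 30. Of 21 on the list with GYS1 11 were tested. At day 14, 1 was higher and 7 lower (36.5% and 17.0% of all genes). At day 30, 1 was higher and 5 lower (26.0% and 11.6% of all genes). The list medians were -0.57 on both days, beside 0.26 and 0.18 for all genes. Under median of ratios 10 were lower at day 14, where 2140 of all 8657 genes tested were called lower in place of 1473. PYGM, muscle glycogen phosphorylase, fell from 27.7, 25.7, 27.1 and 24.8 FPKM in controls to 4.56, 5.91, 2.32 and 1.99 FPKM in grafts at day 14 (log2 -2.63, adjusted p = 1.65e-06), and from 15.5 ± 4.35 to 3.68 ± 1.87 FPKM at day 30 (-1.88, adjusted p = 0.000132). GBE1, the branching enzyme, went from 24.1 ± 2.75 to 6.79 ± 2.94 FPKM at day 14 and from 16.1 ± 2.87 to 4.82 ± 1.35 FPKM at day 30 (adjusted p = 2.61e-05 and 0.000167). GYG1, the glycogenin primer, fell by 1.13 and 0.91 on the log2 scale.

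PYGB, brain phosphorylase, fell by 0.71 and 0.60, and PYGL, the liver form, was lower at day 30 (-0.85, adjusted p = 0.00104) and not called at day 14 (-0.28, adjusted p = 0.195). PPP1R3C, which brings a phosphatase to glycogen, dropped from 17.6 ± 0.40 to 4.67 ± 3.39 FPKM at day 14 (log2 -1.95, adjusted p = 0.000173) and was not called at day 30 (-0.57, adjusted p = 0.237). Like GYS1, it was lower in controls of day 30 than of day 14 (-1.82, adjusted p = 0.00316). PHKG2, a catalytic subunit of phosphorylase kinase, rose (1.67, adjusted p = 0.000216, and 1.04, adjusted p = 0.0142).

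Of the 5 members other than STC2, 4 were called at day 14, 3 of them higher, where 53.5% of all genes were called. At day 30, LDHA was called higher and HIF1A lower, 2 of these 5, where 37.6% of all genes were called. The graft effect itself differed between the days for each of these 5 members, beside 12.9% of all genes (5.38% with a larger and 7.57% with a smaller signed effect at day 30, 466 and 655 genes, or 601 and 524 under median of ratios). The difference of the log2 effects, day 30 minus day 14, was -1.93 for LDHA (SE 0.19, adjusted p = 1.06e-05), -1.13 for TPI1 (SE 0.17, adjusted p = 0.000432) and -1.26 for HIF1A (SE 0.14, adjusted p = 2.39e-05). For GYS1 the difference was 0.60 (SE 0.17, adjusted p = 0.0238), a call lost in 4 of 34 alternatives. Among these were TPM (0.58, adjusted p = 0.208) and leaving out the mixture-like libraries (0.58, adjusted p = 0.13). The difference was 2.12 for STC2, given without a test. For ANKRD37 it was -2.64 (SE 0.78, adjusted p = 0.0327), a call lost in 16 of 32 alternatives, leaving out any of 9 single libraries among them (controls of day 14 replicates 1 and 2, grafts of day 14 replicates 3 and 4, controls of day 30 replicates 1, 2 and 4, grafts of day 30 replicates 3 and 4, with adjusted p from 0.0524 to 0.067).

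These differences between days are made of 4 groups, and the controls moved too. Between the controls, LDHA and HIF1A were higher and GYS1 lower at day 30, where 10.7% of all genes were called. Between the grafts, LDHA (log2 -0.97, adjusted p = 0.000173), TPI1 (-0.90, adjusted p = 0.0001), HIF1A and ANKRD37 were lower at day 30, where 16.3% of all genes were called. LDHA rose between the controls by nearly the amount it fell between the grafts (0.96, SE 0.14, adjusted p = 0.000248), but this rise was lost with the day 14 controls as 1 sample (adjusted p = 0.151). With that change and without the mixture-like libraries, none of these differences of effects was called, in a fit with fewer samples. The estimates of 4 of the 5 genes moved little, to -1.84 for LDHA (adjusted p = 0.168), -1.04 for TPI1 (0.362), -1.26 for HIF1A (0.25) and 0.58 for GYS1 (0.666), while ANKRD37 went from -2.64 to -1.95 (0.712). By list, 0 of 14 glycolytic enzymes had a larger and 6 a smaller effect at day 30, and 1 and 5 of 22 hypoxia targets did. Over all genes tested, 5.38% had a larger and 7.57% a smaller effect.

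**Figure D3:**
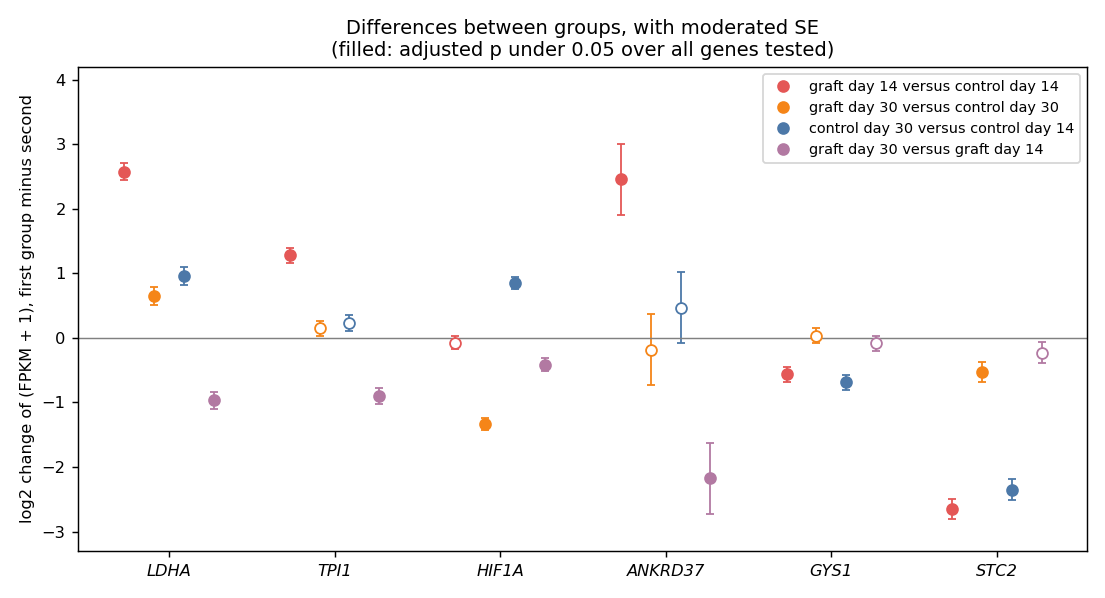
Log2 change of (FPKM + 1) with its moderated SE (vertical axis) for the 6 genes in 4 comparisons, filled where the adjusted p was under 0.05. LDHA and TPI1 have their largest values for grafts against controls at day 14 (2.57 and 1.28), HIF1A has its largest fall at day 30 (-1.34), and STC2 differs as much between the controls of both days (-2.35) as between graft and control at day 14 (-2.65).

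Against unoperated vein, the graft of day 14 held more LDHA (log2 1.83, adjusted p = 1.46e-08), TPI1 and HIF1A, and no other member differed past the threshold, where 43.3% of all genes were called. The graft of day 30 held more LDHA (0.87, adjusted p = 0.000108) and HIF1A, where 33.4% were called. Vein and the mean of both control groups differed in TPI1 (0.56, adjusted p = 0.000379), HIF1A (-1.56, adjusted p = 1.62e-10) and GYS1 (-0.40, adjusted p = 0.0046), where 37.1% of all genes were called. LDHA was not called (0.26, adjusted p = 0.101) but was without control day 30 replicate 3 (0.31, adjusted p = 0.0376) and with library or group weights (adjusted p = 0.00823 and 0.0308). ANKRD37 was not called either (0.87, adjusted p = 0.168), and without vein replicate 3 it was (1.45, adjusted p = 0.0152). Leaving out that library also called ANKRD37 lower in grafts of day 30 than in vein (-1.40, adjusted p = 0.0365, from -0.83 and 0.273). For the order of levels above, the background was 36.5% of all genes called between vein and controls of day 14, 29.8% between vein and controls of day 30, 46.6% between grafts of day 30 and controls of day 14, and 49.4% between grafts of day 14 and controls of day 30. In those pairs LDHA of vein exceeded controls of day 14 (0.74, adjusted p = 0.000393), TPI1 of vein exceeded controls of day 30 (0.44, adjusted p = 0.00937), and TPI1 of day 30 grafts exceeded controls of day 14 (0.37, adjusted p = 0.0162). HIF1A of day 14 grafts was below controls of day 30 (-0.92, adjusted p = 5.28e-07).

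Cell type markers also differed between the groups, and not always in step with these genes. Macrophage markers (16 of 18 found) summed to 49.3–56.5 FPKM in controls and 537–1234 FPKM in grafts at day 14, and to 23.6–40.5 and 577–886 FPKM at day 30, with vein at 69.8–123 FPKM and CD68 listed at 0 in every control and vein library. Cell cycle genes (12 of 12) summed to 20.3–24.4 and 96.6–153 FPKM at day 14 and to 28.6–35.4 and 62.1–88.6 FPKM at day 30. Within the day 14 grafts, LDHA, TPI1 and GPI were highest in replicates 3 and 4, as were the macrophage (1123 and 1234 FPKM, against 696 and 537) and cell cycle sums (143 and 153 FPKM, against 96.6 and 112), while GAPDH, EPAS1, STC1 and PYGM were highest in replicates 1 and 2. Between the controls of the 2 days, where LDHA and HIF1A differed, the macrophage sum was lower at day 30 through LYZ alone (32.6–41.3 FPKM at day 14, 0–4.04 at day 30), and without LYZ it was 15.2–17.0 FPKM at day 14 and 19.97–40.5 at day 30. The part of these cells in the results was not tested.

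Smooth muscle markers fell with the glycogen genes and PFKP, in the sums given above. PYGM, which was lower in grafts of day 14, and ENO3, which was higher in them, are both known from striated muscle. Striated muscle markers (13 of 17) summed to 560–622 FPKM in controls and 8.28–81.4 FPKM in grafts at day 14. They summed to 471–594 and 26.1–58.8 FPKM at day 30, and to 28.0–40.2 FPKM in vein, with TNNC2 and MYLPF listed at 0 in all groups. Endothelial markers (10 of 11) summed to 53.7–55.5, 222–434, 61.6–111, 430–587 and 733–972 FPKM in controls and grafts of day 14, controls and grafts of day 30, and vein. In the same order, fibroblast markers (8 of 9) summed to 1717–1900, 3182–3918, 1614–3231, 4368–5046 and 3732–4619 FPKM, and adipocyte markers (6 of 8) to 53.5–56.5, 294–1427, 53.1–447, 680–816 and 106–444 FPKM. These 2 lists were mixed in grafts of day 14. Of 7 fibroblast markers tested 2 were higher and 2 lower, and of 5 adipocyte markers 3 and 1 (36.5% and 17.0% of all genes). COL1A2 alone was 2377–3472 FPKM in those grafts, while DCN (243–334, against 432–455 in controls) and CIDEA (0–0.07, against 2.34–4.23) were lower. T and B cell markers (9 of 10) reached at most 2.19, 83.5, 14.2, 438 and 26.3 FPKM, and the 3 erythroid markers found of 7, none of them a globin, at most 2.42 FPKM in any library. Globin RNA was present in every library all the same: HBB2, a beta-globin outside the list and named after its values were seen, was 712–756 FPKM in controls of day 14, 644–3911 in grafts of day 14, 583–4712 in controls of day 30, 1941–4687 in grafts of day 30 and 2592, 4265, 21150 and 8226 FPKM in vein. Their part in the results was not tested either.

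**Figure D4:**
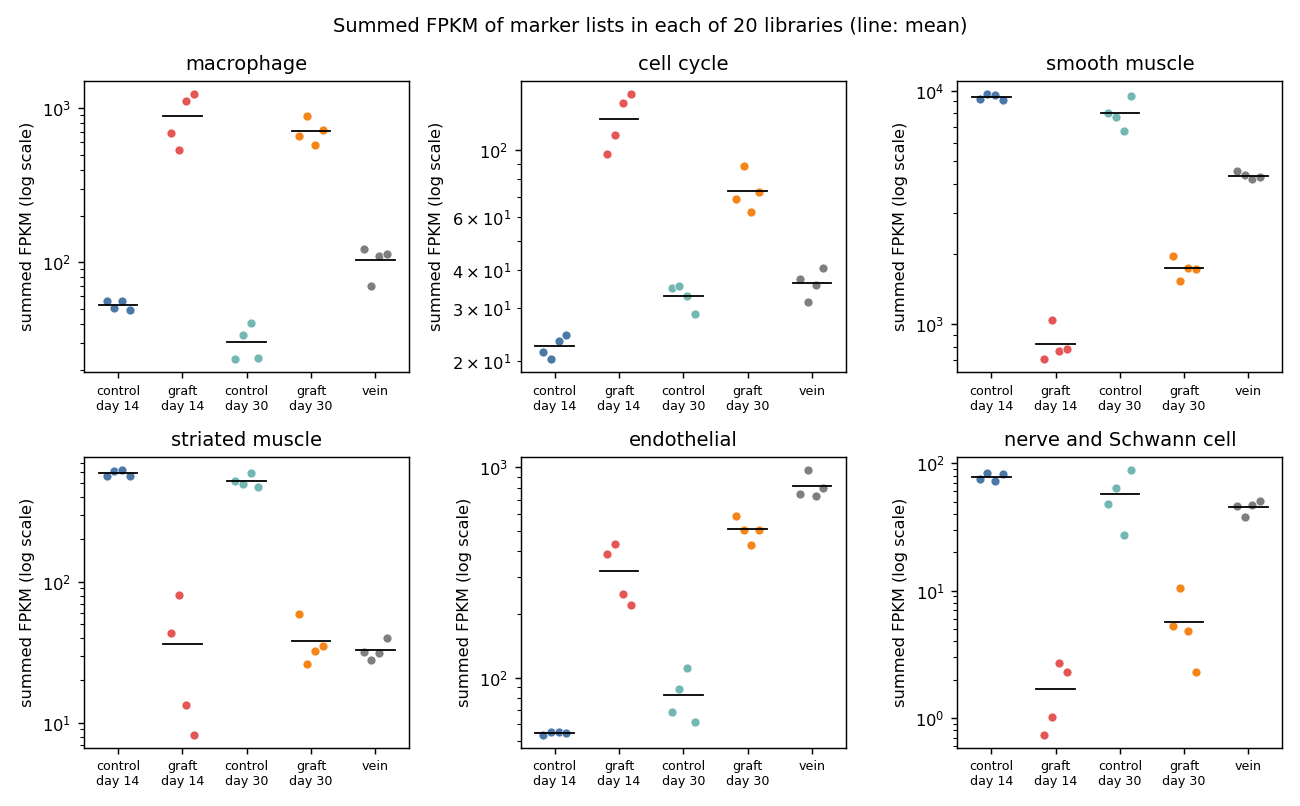
Summed FPKM (vertical axis, log scale) of 6 marker lists in the 20 libraries by group; each point is a library and the line the mean. Macrophage and cell cycle sums are high in both graft groups, smooth muscle and striated muscle sums are high in the control arteries, and nerve sums are lowest in grafts of day 14.

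The genes most like each member in pattern were read by Pearson's r of log2(FPKM + 1) over all 20 libraries among 7444 tested genes with a symbol, a description in which the 5 groups and the depth are shared by all points. PCNA, the sliding clamp of DNA replication, was closest to LDHA (r = 0.977), with group means of 18.2, 54.8, 26.6, 38.8 and 24.1 FPKM (controls and grafts of day 14, controls and grafts of day 30, vein), the same order as LDHA. LOXL1 (0.966), a cross-linker of elastin, and CEP55 (0.965), of cell division, followed. TPI1 was closest to ATP5MC3 (0.961), a subunit of ATP synthase, to the hypoxia target BNIP3 (0.955) and to CCNE1 (0.944), a cyclin. HIF1A was closest to IBTK (0.967), the fibronectin receptor subunit ITGA5 (0.930) and EDIL3 (0.917). ANKRD37 had weaker partners, OIP5 (0.825), SEC22B (0.823) and WDR55 (0.807).

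STC2 was closest to PRPH (0.985), the intermediate filament of peripheral neurons, HTR1E (0.979), a serotonin receptor, and CDH19 (0.970), a Schwann cell cadherin, and GYS1 to F2 (0.887), CDH19 (0.880) and COL7A1 (0.866). Like STC2, PRPH, HTR1E and CDH19 passed the filter on low values only through the controls of day 14. PRPH averaged 4.39 FPKM there and at most 0.562 elsewhere, and HTR1E 2.68 and at most 0.305. The high r of STC2 with these genes was therefore built in and is not read further. CDH19 averaged 13.2 FPKM in controls of day 14 and was listed at 0 in grafts of day 14, controls of day 30 and vein. A list of 8 nerve and Schwann cell markers, chosen after these values were seen, summed to 73.0–84.3 FPKM in controls of day 14, 27.2–88.6 in controls of day 30, 37.6–50.6 in vein, 2.28–10.4 in grafts of day 30 and 0.74–2.68 in grafts of day 14. In controls of day 30 and in vein this sum was well above the grafts while STC2 was at 1.55 FPKM or less, and the part of nerve in the level of STC2 was not tested.

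Among the members themselves, over the same 20 libraries, LDHA and TPI1 had r = 0.819, and ANKRD37 had 0.763 with TPI1 and 0.605 with LDHA. GYS1 and STC2 had r = 0.834, both with their highest values in the controls of day 14, through which alone STC2 passed the filter on low values. This r is therefore not read further. HIF1A varied with none of the enzymes (0.0131 with LDHA, -0.262 with TPI1) and, at 0.306, most with STC2. By group mean, LDHA, TPI1 and ANKRD37 were highest in grafts of day 14, GYS1 in controls of day 14 and HIF1A in controls of day 30. STC2 was highest in controls of day 14 too, which the filter had built in.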

How the data were processed

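Total RNA of 20 rabbit vessel libraries was sequenced with paired-end reads. The authors deposited 1 table of FPKM values per transcript (24964 rows, no read counts), per the file header. Per the submitters' processing notes, fastp, HISAT2, StringTie, RSEM and DESeq2 were used, with versions and genome build not given in the sources used here. Without counts, depth is unknown and no counting error can be given.

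Adding up transcripts gave FPKM for 23669 genes, 1278 of them from several rows. Genes reaching 1 FPKM in at least 4 libraries (8657) were fitted with limma 3.58.1 in R 4.3.3 on log2(FPKM + 1), estimating 5 group means from the 20 libraries together, variances following the mean level and no block. A fold on this scale understates the change of low genes. P-values are two-sided and adjusted by Benjamini-Hochberg over all genes tested, and a gene is called below 0.05. Errors of log2 values are limma's SE, those of FPKM are SD. Shares were compared by exact permutation. Names came from the table for 6907 tested genes and through NCBI gene numbers for 612, and 1138 had none. The fit was tested on simulated data.

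The 6 members and all gene lists were chosen with earlier results of these data known. Named genes are the members, fixed pathway genes, the 4 smallest adjusted p of each list at each day and the 3 genes closest in pattern to each member, and some that the rule gives are not named. Alternatives changed 1 choice at a time, with 1 exception named last. They covered the values (pseudocount 0.1, TPM, quantile or median-of-ratios scaling, the highest transcript alone for the shares), the genes (at least 5 FPKM, unfiltered, or none listed at 0), the model (library weights, group weights, a replicate block, a fit on the compared groups) and the libraries (omitting each in turn or the 4 mixture-like ones, merging the day 14 controls, or both of the latter). Figures were drawn with matplotlib 3.10.9 in Python 3.11.15, with pandas 2.3.3, scipy 1.17.1 and numpy 2.4.6.

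The labels number the replicates of every group 1 to 4. Deviations of same-numbered libraries from their group means correlated between -0.18 and 0.193, and the numbers were not treated as pairs. This cannot exclude that graft and opposite artery of a number come from the same animal.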

Additional observations from a re-analysis of the deposited data

Results flagged for a closer look

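GYS1 in graft day 14 replicate 2, at 6.56 FPKM, lay far from the other libraries of its group (8 to 8.26 FPKM). It was the only such case among 30 groups of 4 (6 genes in 5 groups), where chance alone gives about 1 in 20.

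The difference of the graft effects between the days was called by limma for LDHA, TPI1, HIF1A, ANKRD37 and GYS1, and for STC2 too, which passed the filter on low values through the day 14 controls alone, so that its call was built in. On the log2 scale, day 30 minus day 14, it was -1.9308 for LDHA, -1.1322 for TPI1, -1.2639 for HIF1A, -2.6385 for ANKRD37, 0.5985 for GYS1 and 2.1235 for STC2. For HIF1A the graft effect was near 0 at day 14 and negative at day 30. For GYS1 and STC2 the controls of day 14 stood above every other group, so their differences carry the gap between the controls of the 2 days. That gap cannot be told apart from the libraries of the day 14 controls, which were nearly identical to each other.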

How the results depend on the processing

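Member calls of grafts against controls that held in all 34 alternatives were LDHA and TPI1 at day 14 and HIF1A at day 30. Of 1616 member values under the alternatives, 1516 kept their direction and side of the threshold, 55 lost and 23 gained a call (7 of the 23 for TPI1 in grafts of day 30 against vein), and 22 turned sign, all of these among differences that were not called. No counts, no build, near-identical day 14 controls and mixture-like libraries limit every result.

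Turned signs were as follows. TPI1 at day 30 went to -0.048 under median of ratios and -0.12 under TPM. HIF1A at day 14 went to 0.0005053 with library weights. ANKRD37 at day 30 went to 0.2485 without the mixture-like libraries and with both changes, and ranged from -0.50 to 0.12 with single libraries left out. GYS1 at day 30 went to -0.14 (median of ratios), -0.21 (TPM), -0.21 (quantile) and -0.006081 (without the mixture-like libraries, and with both changes), with -0.035 to 0.16 over single libraries. GYS1 under TPM went to 0.0897 between grafts, -0.10 for grafts of day 14 against vein and -0.011 for grafts of day 30 against vein (quantile -0.059). STC2 of day 30 grafts against vein went to -0.17 (quantile) and -0.029 (library weights).

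Genes called changed by over 1.5 times as follows, the main count first. Grafts against controls at day 14 had 4634 calls, 2499 with the day 14 controls as 1 sample, and 1641 when both changes were made. At day 30 there were 3253, with 5082 under library weights and 1758 with both. The difference of effects had 1121, with 539 (TPM), 4257 (library weights), 93 (day 14 controls as 1 sample), 381 (without mixture-like libraries) and 7 (both). Between grafts there were 1412, with 858 (TPM), 321 (only the groups compared), 5299 (library weights), 757 (group weights), 424 (without mixture-like libraries), 88 (both) and 918 to 1658 over single libraries, the lowest without graft day 30 replicate 1. Between controls there were 929, with 2963 (library weights), 1536 (group weights), 29 (day 14 controls as 1 sample), 433 (without mixture-like libraries) and 8 (both). Vein against controls had 3214, with 2036 (day 14 controls as 1 sample) and 1110 (both). Grafts of day 14 against vein had 3750, with 5853 (library weights) and 2077 (both), and grafts of day 30 against vein 2894, with 4655 (library weights), 1918 (without mixture-like libraries) and 1285 (both). Settings that merge or omit libraries fit fewer samples. For the others the cause was not tested. Exact tests planned for listed genes under the filter were not run, since a listed 0 can be a failed estimate.

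With the replicate number as a block, 4573, 3186, 1047, 1298, 857, 3121, 3668 and 2772 genes were called in the same order, and no member call changed. In 10 of 40 comparisons between groups a library correlated best with the one of its own number. Between graft and control of the same day and number, deviations correlated at -0.107 to 0.127 on day 14 and -0.18 to 0.063 on day 30. Whether such libraries share an animal is unknown. The 40 include comparisons across days and with vein, and the day 14 controls hardly differ, so the check cannot decide it.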
